A study of Mus musculus with 11 samples.

Results

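RNA of LINE-1 repeat families was measured in Dicer-deficient and wild-type mouse embryonic stem cells (ESCs), where 76 of 429 repeat families in a table of 48942 features were LINE-1, and in cMyc-deficient and floxed ESCs, where 68 of 400 repeat families among 39889 features were. A family was taken as LINE-1 where its name starts with L1 or Lx. The 6 families whose name starts with L1Md are called young here, and the other 70 old (62 in the cMyc table). By name, the old families comprise 12 rodent L1 families (L1_ and L1VL names), 16 Lx families and 42 L1M families. The tables share 68 families, and the 8 found in the Dcr table alone are all old.

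All cells were ESCs of strain 129S4/SvJae kept on gelatin without feeder cells, and RNA was selected for poly(A) tails before strand-marking dUTP library preparation. Dcr KO stands for 3 lines without Dicer (lines 1, 3 and 4), set against 2 libraries of Dcr WT cells. cMyc KO is 1 library of cMyc-null cells, set against 1 library of cells with flox/flox cMyc alleles (cMyc flox). The labels do not state which part of each gene was deleted or whether each Dcr KO line is 1 clone.

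A LINE-1 element is a retrotransposon that carries its own promoter and encodes an RNA-binding protein and an enzyme with endonuclease and reverse transcriptase activity, with which it copies its RNA back into the genome. In the mouse, the L1Md_T, L1Md_A and L1Md_Gf families hold full-length copies that can still move, whereas L1Md_F families and the Lx, rodent L1 and L1M families are mostly truncated, immobile copies, L1M being the oldest. ESCs are known to transcribe young LINE-1 copies and to restrain them through DNA methylation, histone H3 lysine 9 methylation and RNA degradation.

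The Dcr libraries held 101815723 to 278006158 reads and the cMyc libraries 31633011 (cMyc KO) and 24660365 (cMyc flox). LINE-1 families took 0.0623 to 0.0837% of reads in Dcr KO and 0.0745 and 0.0641% in Dcr WT libraries 1 and 2. Values are normalised read counts per family, summed over its copies and not divided by length, so levels are compared within a family between libraries. No source used here says how a read that fits several copies or families was assigned, so reads may be split between near-identical families. Dicer1 stood at 8553, 9793 and 7743 in Dcr KO lines 1, 3 and 4, against 20132 and 18792 in Dcr WT libraries 1 and 2. Myc had 12 reads in cMyc KO, against 446 in cMyc flox. The 7 ESC markers examined, Pou5f1, Sox2 and Nanog among them, were present in every library, and 0 of them passed the test in either direction between Dcr KO and Dcr WT (limma with Benjamini-Hochberg adjustment; 1 was higher and 0 lower at an unadjusted p under 0.05; edgeR and DESeq2 also called 0). Nanog had the largest log2 fold change of the 7, 0.48. Fibroblast and 2-cell-like markers did differ and are given beside the LINE-1 results.

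Loss of Dicer went with opposite changes inside the young group. L1Md_T, the family with most young LINE-1 reads, fell 2.28-fold, while the other 5 L1Md families rose 1.92- to 3.41-fold. L1Md_T stood at 20601, 41015 and 29646 in Dcr KO lines 1, 3 and 4, against 82759 and 55945 in Dcr WT libraries 1 and 2. All 3 knockout lines lay below both wild-type libraries. The fit put Dcr KO minus Dcr WT at −1.22 ± 0.27 on the log2(value + 1) scale (SE; limma, 95% interval −1.83 to −0.61, adjusted p = 0.00878). These values rest on 23219 to 61284 reads per library, so counting error is small beside the spread between lines. In bulk RNA, fewer cells that carry a transcript and less of it per cell cannot be told apart.

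**Figure D1:**
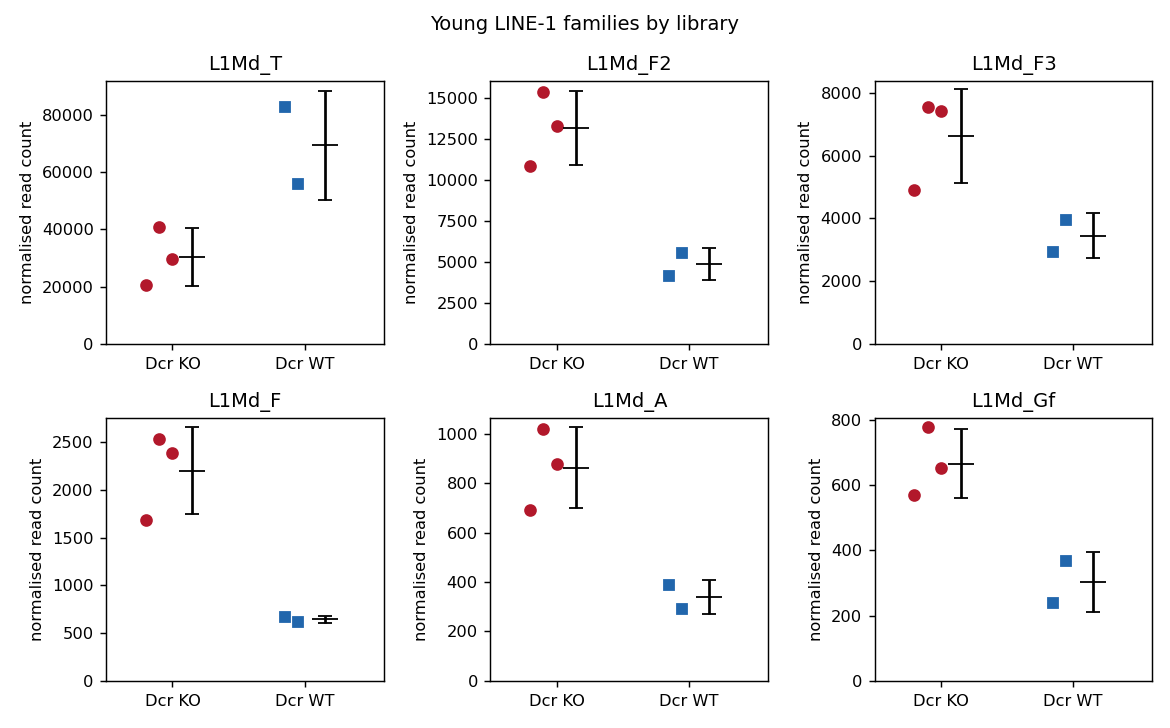
Normalised read count (linear axis from 0) of each young LINE-1 family in every Dcr library, Dcr KO lines as circles and Dcr WT libraries as squares, with the mean and SD beside them. L1Md_T lies lower in all 3 Dcr KO lines than in either Dcr WT library, and the other 5 families lie higher in all 3.

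L1Md_F, whose copies are older than those of L1Md_T, had the largest log2 fold change of the 6. It had 1687, 2537 and 2384 in Dcr KO lines 1, 3 and 4, against 672 and 621 in Dcr WT libraries 1 and 2, which differ by 1.75 ± 0.21 on the log2 scale (SE; adjusted p = 0.000398 in limma). L1Md_F2 had 10853, 15382 and 13302 in the Dcr KO lines, against 4174 and 5565 in Dcr WT (1.44 ± 0.19, limma adjusted p = 0.000661). In both families the lowest knockout line lay well above the highest wild-type library. L1Md_A, which still holds mobile copies, had 691, 1020 and 877 in Dcr KO lines, against 388 and 292 in Dcr WT (1.34 ± 0.24, limma adjusted p = 0.00294). L1Md_Gf, the other family of this kind beside L1Md_T, had 569, 778 and 650 in Dcr KO, against 237 and 367 in Dcr WT (1.16 ± 0.25, limma adjusted p = 0.00794). The 2 families thus moved the other way from L1Md_T. L1Md_F3 had 4901, 7532 and 7414 in Dcr KO, against 2943 and 3965 in Dcr WT (0.93 ± 0.22, limma adjusted p = 0.0118).

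In all, 5 of the 6 young families rose and 1 fell, where 16.9% of the 42358 features tested rose and 14.8% fell. Values did not overlap between the genotypes in any of the 6 (Dcr KO above in 5, below in 1), as was the case for 30.0% of all features with Dcr KO above and 27.4% with Dcr KO below. The L1Md_T call was lost without Dcr KO line 4 (log2 fold change −1.23, limma adjusted p = 0.0521), and that of L1Md_F3 without line 3 (0.82, adjusted p = 0.0634) or line 4 (0.83, adjusted p = 0.0657). Without Dcr WT library 1, whose column name carries a suffix of its own that no label explains, L1Md_T was at −0.94 (adjusted p = 0.00860), in a fit that leaves 1 wild-type library.

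These opposite changes altered the makeup of the young LINE-1 RNA. L1Md_T made up 52.4, 60.1 and 54.6% of the summed L1Md value in Dcr KO lines 1, 3 and 4, against 90.8 and 83.8% in Dcr WT libraries 1 and 2. The shares of the knockout lines all lay below those of the wild-type libraries. The L1Md sum was 53946 ± 14484 in Dcr KO (SD, n = 3) and 78964 ± 17268 in Dcr WT (SD, n = 2). Its values overlapped between the genotypes, line 3 standing at 68264 and Dcr WT library 2 at 66754. Without L1Md_T the sum was 23525 ± 4379 in Dcr KO, 2.45-fold above the 9612 ± 1693 in Dcr WT, with no overlap. No p is given for these sums.

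**Figure D2:**
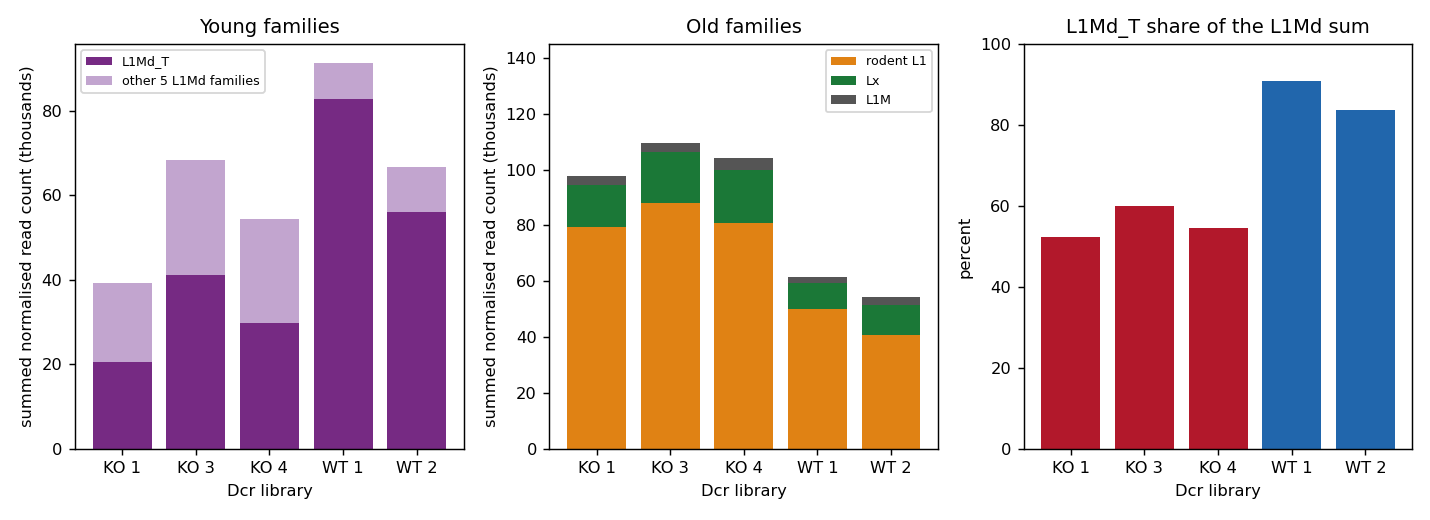
Summed normalised read count of young families (left, L1Md_T and the other 5) and old families (middle, by sub-class), and the percentage of the L1Md sum held by L1Md_T (right), for each Dcr library. The L1Md_T share is 52.4 to 60.1% in the 3 Dcr KO lines, against 83.8 and 90.8% in the Dcr WT libraries, and the sum of old families is higher in every Dcr KO line.

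The Dcr KO lines kept one order in every young family: line 3 was the highest and line 1 the lowest in all 6, although L1Md_T fell and the others rose. The ratio of line 3 to line 1 reached 1.99 for L1Md_T. Among the 41 old families whose mean was at or above 54.1, the median of all features tested, line 1 was the lowest in 30, and line 4 was the highest in 24. The low place of line 1 was not particular to LINE-1. The sum of other repeats was 128853, 133388 and 135640 in lines 1, 3 and 4, and unannotated loci took 0.432, 0.482 and 0.601% of reads. Line 4, not line 3 as in the young families, was the highest in both. Between the wild-type libraries, L1Md_T was 1.48 times as high in library 1 as in library 2, and library 1 was the higher in 3 of the 6 young families.

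Old families rose or did not pass the test, and 0 of 70 fell. In limma 31 rose, or 44.3%, where 16.9% of all features tested rose and 14.8% fell. Unadjusted p-values below 0.05 numbered 38 in the higher direction and 2 in the lower. On the recovered reads edgeR called 27 higher and 1 lower, and DESeq2 30 and 1. The 1 that both tools called lower was L1MC4a, named here after its values were seen. It stood at 13.3, 16.0 and 9.18 in Dcr KO lines 1, 3 and 4, against 28.2 and 53.9 in Dcr WT libraries 1 and 2. These values rest on 12 to 21 reads in the Dcr KO lines and on 14 and 59 in the Dcr WT libraries, which differ in depth. Its limma log2 fold change was −1.56 (adjusted p = 0.0589). The median log2 fold change of the 70 old families was 1.01, against 0.08 over all features tested. With the 2 families that had 0 reads in both wild-type libraries (L1MD and L1M3d, both L1M) set to a bound of 3 reads per wild-type library, the median was 1.00. Dcr KO lay wholly above Dcr WT in 45 of the 70 (64.3%, against 30.0% of all features) and wholly below in 3 (4.29%, against 27.4%).

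Rodent L1 families, which spread in the rodent lineage, all rose. The log2 fold changes of the 12 ranged from 0.79 to 1.60, and in none of the 12 did the genotypes overlap. Of all features tested 16.9% rose, and in 30.0% Dcr KO lay wholly above Dcr WT. L1_Mus1, which held 54.0 to 61.9% of the old LINE-1 value in Dcr KO and 66.2 and 54.2% in Dcr WT libraries 1 and 2, had the smallest. It stood at 60332, 62818 and 56217 in Dcr KO lines 1, 3 and 4, against 40694 and 29391 in Dcr WT libraries 1 and 2 (0.79 ± 0.16, SE; limma adjusted p = 0.00636). L1_Mus2 had the largest, with 1370, 1831 and 1740 in Dcr KO, against 499 and 584 in Dcr WT (1.60 ± 0.20, limma adjusted p = 0.000459). L1VL4 rose 2.92-fold, to 1708 ± 429 in Dcr KO (SD, n = 3), against 584 ± 87 in Dcr WT (SD, n = 2). The well covered L1_Mus3 rose 2.03-fold, L1VL2 1.98-fold, L1_Mus4 2.41-fold and L1_Mur2 2.42-fold. L1_Rod, at 201, 311 and 244 in Dcr KO, against 86.5 and 96.8 in Dcr WT, rose 2.75-fold. Every rodent L1 family except L1VL1 (without Dcr KO line 3) remained called when any 1 library was left out.

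Lx families, an older murine group, rose in 10 of 16 cases (62.5%, against 16.9% of all features) and 6 did not pass the test. Their log2 fold changes were 0.13 to 2.20, with a median of 0.86. Lx4B had 434, 460 and 504 in Dcr KO lines 1, 3 and 4, against 135 and 187 in Dcr WT libraries 1 and 2 (1.54 ± 0.24, SE; limma adjusted p = 0.00159). Lx5 rose 2.32-fold, Lx 2.09-fold and Lx7 1.63-fold. Lx8, by contrast, had 1398, 1595 and 1827 in Dcr KO, against 1390 and 1540 in Dcr WT, so that the genotypes overlapped (0.13 ± 0.18, limma adjusted p = 0.618). Lx2 overlapped too (0.30 ± 0.21, adjusted p = 0.301). Related families in the same group thus differed in whether they passed, and the difference between them was not tested. Of the 10 calls, Lx2A was lost without Dcr KO line 4, Lx6 without line 3, and Lx4A without line 3, line 4 or Dcr WT library 1.

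**Figure D3:**
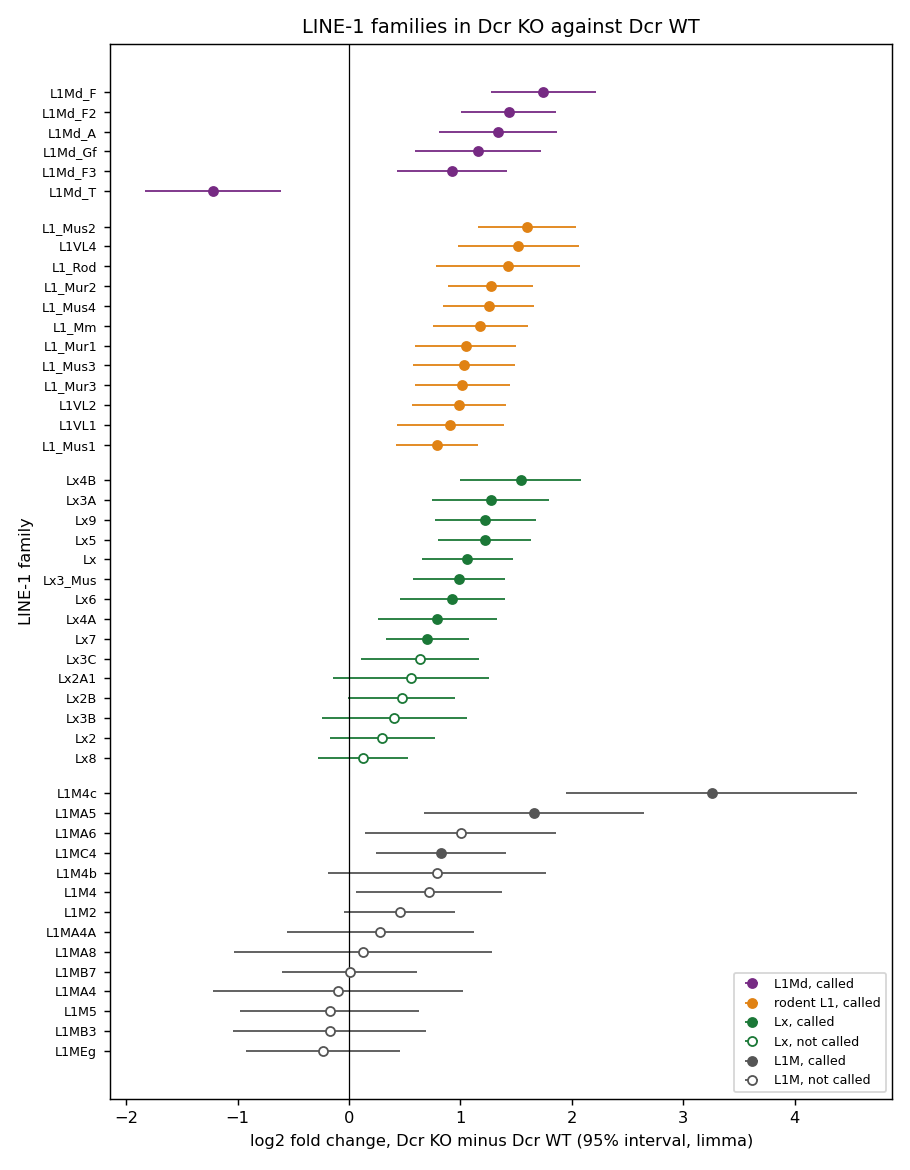
Log2 fold change of Dcr KO over Dcr WT with its 95% interval (limma) for the 6 young families and the 41 old families with a mean at or above the median of all features tested, grouped by sub-class; filled circles passed an adjusted p of 0.05. L1Md_T is the only filled circle left of 0, and all 12 rodent L1 families lie right of it.

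L1M families, the oldest copies, were the least covered and the most mixed. Of 42, 9 rose and 0 fell (limma; 15 higher and 2 lower at an unadjusted p under 0.05), and 10 had a negative log2 fold change. The 9 are 21.4% of the L1M families, near the 16.9% of all features that rose. Of the 42, 14 reached the median level of all features tested, and 3 of these rose: L1M4c, L1MA5 and L1MC4. L1M4c had 87.8, 105 and 87.2 in Dcr KO lines 1, 3 and 4, against 4.02 and 18.3 in Dcr WT libraries 1 and 2 (3.26 ± 0.58, SE; limma adjusted p = 0.00309). The wild-type values rest on 2 and 20 reads, and the log2 fold change was 2.29 without library 1 and 4.22 without library 2. L1MA5 had 89.6, 83.3 and 99.5 in Dcr KO, against 18.1 and 42.9 in Dcr WT (1.66 ± 0.44, limma adjusted p = 0.0190). Its call was lost without any 1 Dcr KO line (adjusted p up to 0.0780) or without library 1 (1.06, adjusted p = 0.0592), and it was at 2.26 without library 2. L1MC4 was likewise lost without any 1 line or without library 2. Below the median level, no family had more than 133 reads in any library, and 6 of 28 L1M families rose.

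Of 353 other repeat families, 51 rose (14.4%, against 16.9% of all features) and 34 fell (9.63%, against 14.8%), and their median log2 fold change was 0.20. Their summed value was 132627 ± 3457 in Dcr KO (SD, n = 3) and 195032 ± 3199 in Dcr WT (SD, n = 2), whereas the old LINE-1 sum was 103694 ± 5996 in Dcr KO and 57847 ± 5165 in Dcr WT. LINE-1 families held 51.5, 57.1 and 53.9% of the summed value of all repeats in Dcr KO lines 1, 3 and 4, against 43.6 and 38.6% in Dcr WT libraries 1 and 2. The sum of all LINE-1 families was 157640 ± 20478 in Dcr KO (SD, n = 3) and 136811 ± 22432 in Dcr WT (SD, n = 2). Its values overlapped, Dcr KO line 1 standing at 136841 and Dcr WT library 1 at 152673. Unannotated loci had a median log2 fold change of 0.40 and coding features −0.06. Whether the LINE-1 reads came from LINE-1 promoters or from copies inside other transcripts was not tested.

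Some markers of other cells also moved with the genotype, where 16.9% of all features tested rose and 14.8% fell. Of 8 fibroblast markers 7 could be tested, 1 rose (Dcn) and 5 fell (Col1a1, Col1a2, Col3a1, Thy1 and Acta2). The summed level of the 8 was 1243 to 1727 in Dcr KO and 10654 and 21848 in Dcr WT libraries 1 and 2. Postn, which could not be tested, was at 0 in every Dcr KO line and in Dcr WT library 1, and at 38.3 in library 2. Both L1Md_T and this fibroblast marker sum were lower in every Dcr KO line than in either Dcr WT library. Between the Dcr WT libraries, L1Md_T was higher in library 1, where the fibroblast marker sum was lower. The sums of 2-cell-like and of extraembryonic endoderm markers, given next, were higher in library 1. Of the 5 markers of 2-cell-like cells in the table, 4 rose (Zscan4c, Zscan4d, Zscan4f and Zfp352), with a sum of 5885 to 9852 in Dcr KO, against 3488 and 691 in Dcr WT libraries 1 and 2. Calls of these 4 were each lost without some library. Of 4 markers of extraembryonic endoderm, 3 could be tested, 0 rose and 1 fell (Gata6), with a sum of 1851 to 2125 in Dcr KO and of 2398 and 1467 in Dcr WT libraries 1 and 2, and Afp was at 0 in all 5 libraries. The part of these cells in the LINE-1 values was not tested. The Zscan4 copies are near-identical, so their reads may be split among them.

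Genes tied by their role to LINE-1 control moved in both directions, as coding features did. Of 41 genes listed by role, 39 were in the table, and 10 of these rose (25.6%) and 5 fell (12.8%). Over all features 16.9% rose and 14.8% fell, and over coding features 20.5% rose and 22.7% fell. The 5 control genes that fell include Dicer1, the gene targeted in these lines, which leaves 4 others. With upper quartile scaling 20 rose and 4 fell, and with scaling by coding features 16 rose and 6 fell. Among 8 genes of DNA methylation, Tet3, which oxidises methylcytosine, rose to 17949 ± 574 in Dcr KO (SD, n = 3), against 3758 ± 626 in Dcr WT (SD, n = 2). Dnmt1, the maintenance methyltransferase, also rose (log2 fold change 0.70). Dnmt3l, the cofactor of de novo methylation, stood at 32856, 28761 and 11643 in Dcr KO lines 1, 3 and 4, against 84191 and 92712 in Dcr WT (−1.99 ± 0.37, SE; limma adjusted p = 0.00357). The de novo enzyme gene Dnmt3b (−1.13) and Uhrf1 (−0.64), which brings Dnmt1 to replicated DNA, fell with it. For each of these 3 genes, both wild-type libraries lay above all 3 knockout lines.

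Among 14 genes of H3 lysine 9 methylation and the HUSH silencing complex, 3 rose and 0 fell in limma, edgeR and DESeq2. At an unadjusted p under 0.05 in limma, 6 were higher and 0 lower. The 3 are 21.4% of the 14, near the 16.9% of all features and the 20.5% of coding features that rose. Atrx, a chromatin remodeller, rose 1.96-fold, and the methyltransferase genes Suv39h1 (0.61) and Ehmt2 (0.50) rose, while Trim28 (−0.36, adjusted p = 0.183) and Setdb1 (0.42, adjusted p = 0.0626) did not pass. Of 7 genes that act on LINE-1 RNA or DNA, 3 rose (42.9%) and 4 did not pass the test in limma. At an unadjusted p under 0.05 in limma, 4 were higher and 1 lower. The 1 lower was Rnaseh2a, named after its values were seen, at −0.39 (adjusted p = 0.0610 in limma and 0.0249 in edgeR). Zc3hav1, which encodes the antiviral zinc finger protein ZAP, had 38180, 41469 and 45611 in Dcr KO lines, against 9670 and 8491 in Dcr WT (2.20 ± 0.14, limma adjusted p = 2.70e-05). Mov10, an RNA helicase that restricts LINE-1, rose 2.48-fold, to 154331 ± 2241 in Dcr KO, against 62266 ± 18325 in Dcr WT. Samhd1 (0.54), which breaks down nucleotides, rose.

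Of 5 germline genes, most of them of the piRNA pathway, Mael (−0.72) fell and 4 did not pass the test. Of 4 small RNA genes Dgcr8 (0.77), the partner of Drosha, rose and Dicer1 (−1.17) fell. L1td1, a gene that descends from a LINE-1 reading frame and is known from ESCs, had 89460, 97314 and 71554 in Dcr KO, against 52889 and 65861 in Dcr WT (0.53 ± 0.17, limma adjusted p = 0.0415). Without Dcr KO line 3, 4 control genes rose and 3 fell, and without line 1, 6 rose and 5 fell. The calls lost without line 3 were those of Dnmt1, Uhrf1, Suv39h1, Ehmt2, Atrx, Mael, Samhd1 and L1td1, and all of these except Dnmt1 and Uhrf1 were also lost without at least 1 other library.

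**Figure D4:**
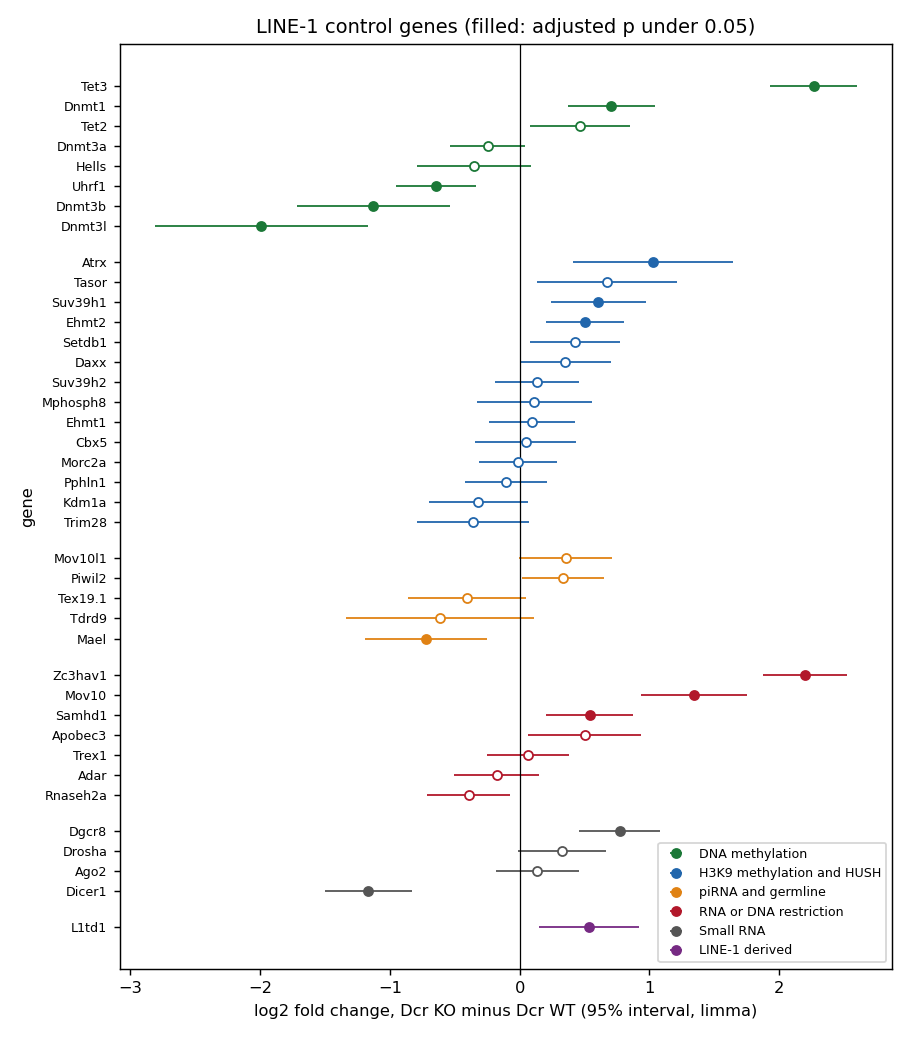
Log2 fold change of Dcr KO over Dcr WT with its 95% interval (limma) for the 39 LINE-1 control genes in the table, grouped by role; filled circles passed an adjusted p of 0.05. Tet3 and Zc3hav1 lie farthest right, and Dnmt3l, Dicer1 and Dnmt3b farthest left.

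The cMyc libraries, 1 per genotype, allow no test, and their intervals cover counting error only. L1Md_T was higher in cMyc KO, at 4429 (4888 reads), against 2909 (2760 reads) in cMyc flox, a ratio of 1.52 (95% exact interval 1.45 to 1.60). L1Md_F2 was lower, at 172 in cMyc KO and 272 in cMyc flox (0.633, 0.522 to 0.767). L1Md_F3 had a ratio of 1.01 (0.843 to 1.22). The ratios of L1Md_Gf (0.732), L1Md_F (0.860) and L1Md_A (0.664) had intervals that included 1. L1Md_T made up 89.7% of the L1Md value in cMyc KO and 82.0% in cMyc flox. Of the 6 young families, 1 was at least 1.5-fold higher in cMyc KO and 2 at least 1.5-fold lower, where 8.96 and 12.4% of the 20470 features with at least 10 reads were. When both libraries were scaled to the same coding total, the L1Md_T ratio was 1.41 and 0 young families were 1.5-fold higher.

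Among old families with at least 10 reads in the cMyc libraries, 36 in all, 2 were at least 1.5-fold higher in cMyc KO (5.56%, against 8.96% of all features) and 14 at least 1.5-fold lower (38.9%, against 12.4% of all features). The share lower was 39.0% among other repeat families and 35.4% among unannotated loci, close to that of the old LINE-1 families. The median ratio was 0.734, against 0.764 for other repeat families, 0.788 for unannotated loci and 1.08 for coding features. L1_Mus1 had 1990 in cMyc KO and 3074 in cMyc flox (0.647, 0.612 to 0.684). With at least 100 reads, the lowest ratios were those of L1_Mm (0.397, 0.283 to 0.551), L1VL2 (0.548, 0.436 to 0.686) and Lx2 (0.549, 0.371 to 0.806). The highest were those of L1M4 (0.905), Lx2B (0.887) and Lx5 (0.774), whose intervals all included 1. Ribosomal RNA took 30.0% of the reads in cMyc KO and 28.1% in cMyc flox, and the summed value of other repeats was 34446 in cMyc KO and 66305 in cMyc flox. Their part in these ratios was not tested.

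Set side by side, 17 families had at least 100 reads in the cMyc libraries. In cMyc KO 15 of the 17 had a ratio below 1, the exceptions being L1Md_T and L1Md_F3. The 15 comprised 11 of the 12 families that rose in Dcr KO and all 4 that did not pass the test there (Lx8, Lx2, Lx2B and L1M4). At the lower limit of 10 reads, 127 of 172 other repeat families had a ratio below 1. So did 32 of 36 old and 4 of 6 young LINE-1 families at that limit. L1Md_T, which fell in Dcr KO, had a ratio above 1. The tables were normalised separately and come from different lines, so no test joins them. Myc itself was lower in the lines without Dicer, at 1253, 1054 and 443 in Dcr KO lines 1, 3 and 4, against 10984 and 7478 in Dcr WT libraries 1 and 2 (−3.44 ± 0.39, limma adjusted p = 0.000289).

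**Figure D5:**
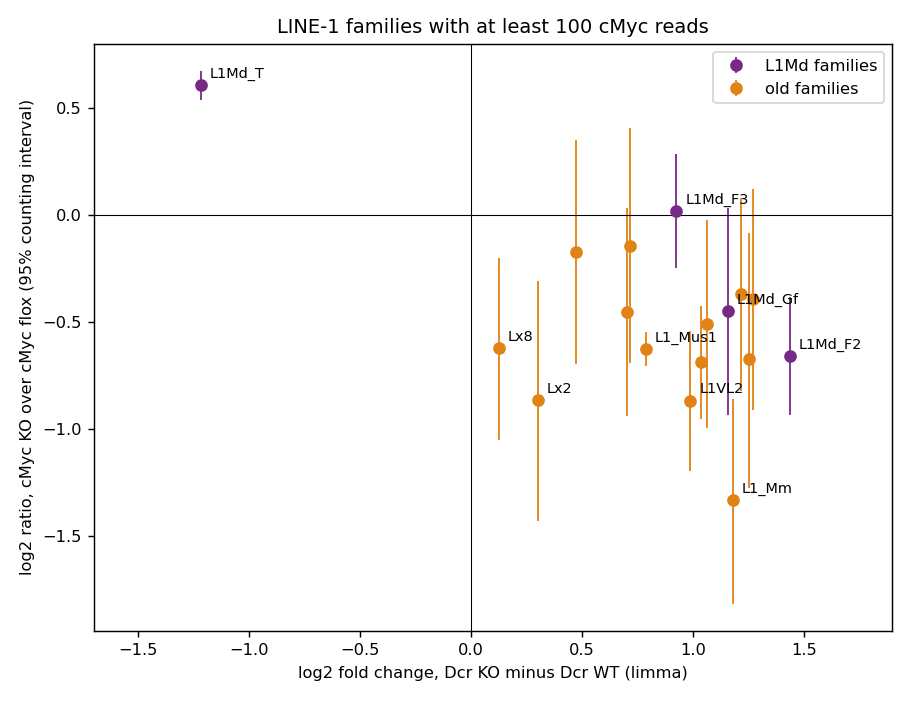
Log2 fold change of Dcr KO over Dcr WT (horizontal, limma) against the log2 ratio of cMyc KO over cMyc flox (vertical, 95% counting interval) for the 17 LINE-1 families with at least 100 cMyc reads. L1Md_T lies alone at upper left (−1.22 and a ratio of 1.52), and all the other families lie right of 0.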

How the data were processed

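RNA of 7 libraries was analysed (3 Dcr KO, 2 Dcr WT, 1 cMyc KO, 1 cMyc flox). The 4 chromatin immunoprecipitation libraries are not analysed here. The submitters' processing notes name TopHat, Bowtie, DESeq and mm9, with no role or version, and no source used here describes the counting, its strand or the assignment of multi-copy reads. The authors deposited a normalised signal per feature. Dividing each library by 1 constant turned 100% of its values into integers (tolerance 0.01), and these were used as the recovered whole reads. Columns without a sample numbered 0.

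The Dcr genotypes were set against each other in limma 3.58.1 under R 4.3.3 (trended empirical Bayes, pseudocount 1 before log2). Features needed a value of 1 or more in 2 or more libraries, which left 42358, all 76 LINE-1 families included. Calls had a Benjamini-Hochberg adjusted p under 0.05. The design foresaw counts or normalised values, and the deposited unit required the latter. Alternatives were edgeR 4.0.16 and DESeq2 1.42.0 on recovered reads, other pseudocounts, scalings and filters, and each library left out. On recovered reads edgeR called 27 old families higher and 1 lower. The fit was tested on simulated data. The p-values measure the spread among the 3 Dcr KO lines and between the 2 Dcr WT libraries pooled. Separate cultures are not stated for the Dcr WT libraries, so their part of it may be technical. For cMyc, ratios carry 95% exact binomial intervals, for features with at least 10 reads.

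RefSeq identifiers were matched to symbols of GRCm38.p6 (20183 of 20559 in the Dcr table). Named families are all L1Md families, the 8 old families with the highest mean, up to 6 in each direction with the largest called change above the median level, and the 3 highest and 3 lowest old cMyc ratios. Other families named were picked after their values were seen. All called control genes are named, except that 1 listed gene is not reported here and stays out of the counts. Members and lists were chosen with earlier results of these data known.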

Additional observations from a re-analysis of the deposited data

How the results depend on the processing

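Of 494 checks of 38 single families and genes other than L1Md_T, 451 kept direction and side of the threshold, 40 lost the call, 3 gained one and 0 reversed. Upper quartile scaling moved the median log2 fold change of all features to 0.36, against 0.08 as reported. Under each scaling 5 young families rose and L1Md_T fell. Without a filter on low values 3 young families rose and 0 fell, with L1Md_T at −1.22 (limma adjusted p = 0.112), and 5 control genes rose and 2 fell. Its adjusted p ranged from 0.000418 to 0.112 over the alternatives, and without 1 library in turn its log2 fold change ran from −1.50 to −0.94; 0.0521 was the adjusted p without Dcr KO line 4, at −1.23. With 1 library left out, 4 to 5 young families rose and 0 to 1 fell, 21 to 35 old families rose and 0 to 1 fell, and 4 to 12 control genes rose and 3 to 7 fell. The 1 old family lower with a pseudocount of 10, in edgeR, in DESeq2 and without Dcr WT library 1 was L1MC4a. Upper quartile scaling called 20 control genes higher and scaling by coding features 16, and total count scaling called 8 lower. As a share of repeat reads the old LINE-1 sum rose by 1.04 on the log2 scale, against 0.84 as reported. In the cMyc libraries, 0 young families were 1.5-fold higher under total count or coding scaling. At 2-fold, 0 young and 0 old were higher and 0 young and 7 old lower. With at least 100 reads, 1 young and 7 old were lower and 0 old higher. The cause of these shifts was not tested. No paired analysis was possible because no label pairs a Dcr KO line with a Dcr WT library. Low reads limit the L1M families and the cMyc ratios.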
